A study of Rattus norvegicus with 53 samples.

Results

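The genes described are 10 interferon response genes, chosen by name and found on the arrays through the platform's gene annotation. They are Irf7, Stat2, Mx1, Mx2, Isg15, Ifit2, Ifit3 and Oas1a, the type I interferon genes, and Irf1 and Cxcl10, which are kept apart because interferon-gamma and NF-kappaB also drive them. The 10 genes had 13 probe sets among the 31042 that were tested, and 10 of the 14217 named genes on the array. Irf7, Mx1, Isg15, Ifit3, Oas1a, Irf1 and Cxcl10 had a single probe set. Mx2, Ifit2 and Stat2 had a pair, and the probe set with the higher mean over the 53 arrays is used unless the other is named.

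Type I interferons are secreted on sensing of viral or cellular nucleic acid and bind a receptor that nearly all cells carry. The receptor's kinases activate STAT2, which joins IRF9 in a complex that binds the interferon-stimulated response element (ISRE) in front of the antiviral genes. Interferon-gamma uses a different receptor and acts on genes with the gamma-activated sequence (GAS). In blood mononuclear cells a coordinated rise of ISRE-driven genes is a common readout of interferon in serum.

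The arrays report on peripheral blood mononuclear cells (PBMCs), a mix of lymphocytes and monocytes, taken from healthy male Brown Norway (BN) rats at day 180. The cells were kept for 6 h in medium with 20% plasma or serum of a donor rat (the labels use both words). The donors of 4 groups were BioBreeding (BB) rats of the congenic line DRlyp/lyp, which is lymphopenic and develops autoimmune diabetes, and the donors of 1 group were BB DR+/+ rats, which are not lymphopenic. The study asked which genes the sera of BB rats induce in healthy cells and whether interleukin-1 (IL-1) takes part.

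The groups with day 60 serum were DRlyp/lyp serum supplemented with the IL-1 receptor antagonist IL-1RA (4 arrays), DRlyp/lyp serum (4 arrays) and DR+/+ serum (4 arrays). Autologous BN serum was supplemented with interleukin-1 beta, IL-1B, on 4 arrays. Day 40 serum came from DRlyp/lyp rats injected daily from day 30 for 10 days with human IL-1RA at 350 ug/kg/day (6 arrays) or with PBS (6 arrays). The source labels of the 6 IL-1RA arrays instead speak of supplemented serum, so that the agent went to the rats rests on the study's design text. The BN controls were allogeneic serum, from other BN rats (15 arrays), and autologous serum, from the cell donor (10 arrays). All cultures used BN cells. BB and allogeneic BN sera differed in strain and also in donor age (60 against 180 days), and these cannot be told apart.

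By their whole profiles the arrays formed 2 clusters for which no label gives a reason. The first held 21 arrays, namely both day 40 groups, 3 allogeneic and 6 autologous arrays, and the second held 32 arrays, namely all day 60 and IL-1B arrays, 12 allogeneic and 4 autologous arrays. Clustering without the 13 probe sets placed 53 of 53 arrays alike. Levels and comparisons are therefore given within a cluster. Finer clustering split the first cluster into subclusters A and B and the second into C, D, E and F. Subcluster F held 5 allogeneic arrays and no other group, so within F the serum and the subcluster cannot be told apart. Nothing in the labels says that replicates came from separate cell donors, so p-values measure only the spread between these arrays.

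Levels are log2 values made by the authors with RMA, so a difference of 1 is a doubling. A member was called changed where limma's moderated test gave a Benjamini-Hochberg adjusted p under 0.05 over all 31042 probe sets. The median level over all probe sets was 5.46. Of the 10 members, 5 lay above it (Irf7, Stat2, Mx1, Isg15 and Irf1), while Mx2 (3.44) and Ifit3 (3.96) lay under the lower quartile of 4.17, where RMA compresses differences. In bulk PBMCs, fewer cells of a type and less RNA per cell cannot be told apart.

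The sequences in front of the genes were searched for ISRE-type, GAS-type and NF-kappaB-type letters. The members were classed by name, not by these matches. RefSeq promoters on GRCr8, from 250 bases before to 50 bases after the start, were on hand for 7 of the 10 members, and not for Mx2, Isg15 and Ifit2. An ISRE-type match (2 copies of GAAA with any 2 bases between them, or of TTTC where the match is on the other strand) was present in 4 of them, Irf7, Ifit3, Oas1a and Cxcl10, against 3.92% of the 33469 promoters of the table. A GAS-type match (TTCNNNGAA, which reads alike on both strands) was present in Irf1 and Oas1a, against 8.87% of all promoters. An NF-kappaB-type match was present in Irf1 and Cxcl10, against 7.51%. The windows of Mx1 and Stat2 held none of these letters. For both, the table's start lies inside the annotated gene, so their windows reach less far in front of it. For Ifit3 (chr1:241527076-241527325, plus strand), Irf1 (chr10:38417685-38417934, plus strand) and Cxcl10 (chr14:15988816-15989065, plus strand) the 250 bases before the gene are printed. For Irf7 (chr1:205800073-205800102, minus strand) and Oas1a (chr12:41330418-41330447, plus strand) the table's start lies inside the annotated gene, and 30 bases around the match are printed. Capitals mark every ISRE-type, GAS-type or NF-kappaB-type match.
Irf7: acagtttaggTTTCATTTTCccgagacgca
Oas1a: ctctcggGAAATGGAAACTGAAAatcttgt
Ifit3: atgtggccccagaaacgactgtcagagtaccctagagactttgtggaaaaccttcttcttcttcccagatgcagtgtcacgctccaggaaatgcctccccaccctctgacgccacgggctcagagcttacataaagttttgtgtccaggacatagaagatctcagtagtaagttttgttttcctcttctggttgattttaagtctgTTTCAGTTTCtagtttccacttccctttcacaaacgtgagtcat
Irf1: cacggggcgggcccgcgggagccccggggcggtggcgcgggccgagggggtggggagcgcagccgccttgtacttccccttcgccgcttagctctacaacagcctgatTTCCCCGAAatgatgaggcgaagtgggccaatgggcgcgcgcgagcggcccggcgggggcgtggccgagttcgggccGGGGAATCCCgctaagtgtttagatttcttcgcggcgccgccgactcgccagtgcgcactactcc
Cxcl10: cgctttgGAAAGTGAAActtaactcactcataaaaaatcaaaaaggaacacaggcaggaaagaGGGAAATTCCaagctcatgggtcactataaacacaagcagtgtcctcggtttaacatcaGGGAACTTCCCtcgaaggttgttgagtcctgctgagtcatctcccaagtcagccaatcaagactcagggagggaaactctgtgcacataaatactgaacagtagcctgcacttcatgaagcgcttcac
In Oas1a the capitals cover a pair of overlapping ISRE-type matches, and its GAS-type match, further from the start, is not in the printed stretch. In Cxcl10 the second NF-kappaB-type stretch is a pair of matches that overlap.

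All calls among the 10 members fell in the comparisons of day 60 BB serum with allogeneic BN serum. Stat2, Mx1, Ifit2 and Irf1 were higher with day 60 BB serum than with allogeneic serum, by 0.79 to 1.49 on the log2 scale with DRlyp/lyp serum and by 0.86 to 1.25 with DR+/+ serum. Irf7, Isg15, Ifit3 and Oas1a, all classical interferon-induced genes, were not called in any of the 12 comparisons, nor was Cxcl10. Other settings of the fit called 3 of them against allogeneic serum. Ifit3 was called when only the arrays compared were fitted (limma adjusted p = 0.029 with DRlyp/lyp and 0.045 with DR+/+ serum), and with array weights Isg15 was called with DRlyp/lyp serum (limma adjusted p = 0.037) and Irf7 with DR+/+ serum (limma adjusted p = 0.010). IL-1B added to autologous serum, IL-1RA added to DRlyp/lyp serum and IL-1RA given to the rats changed none of the 10 members past the threshold.

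**Figure D1:**
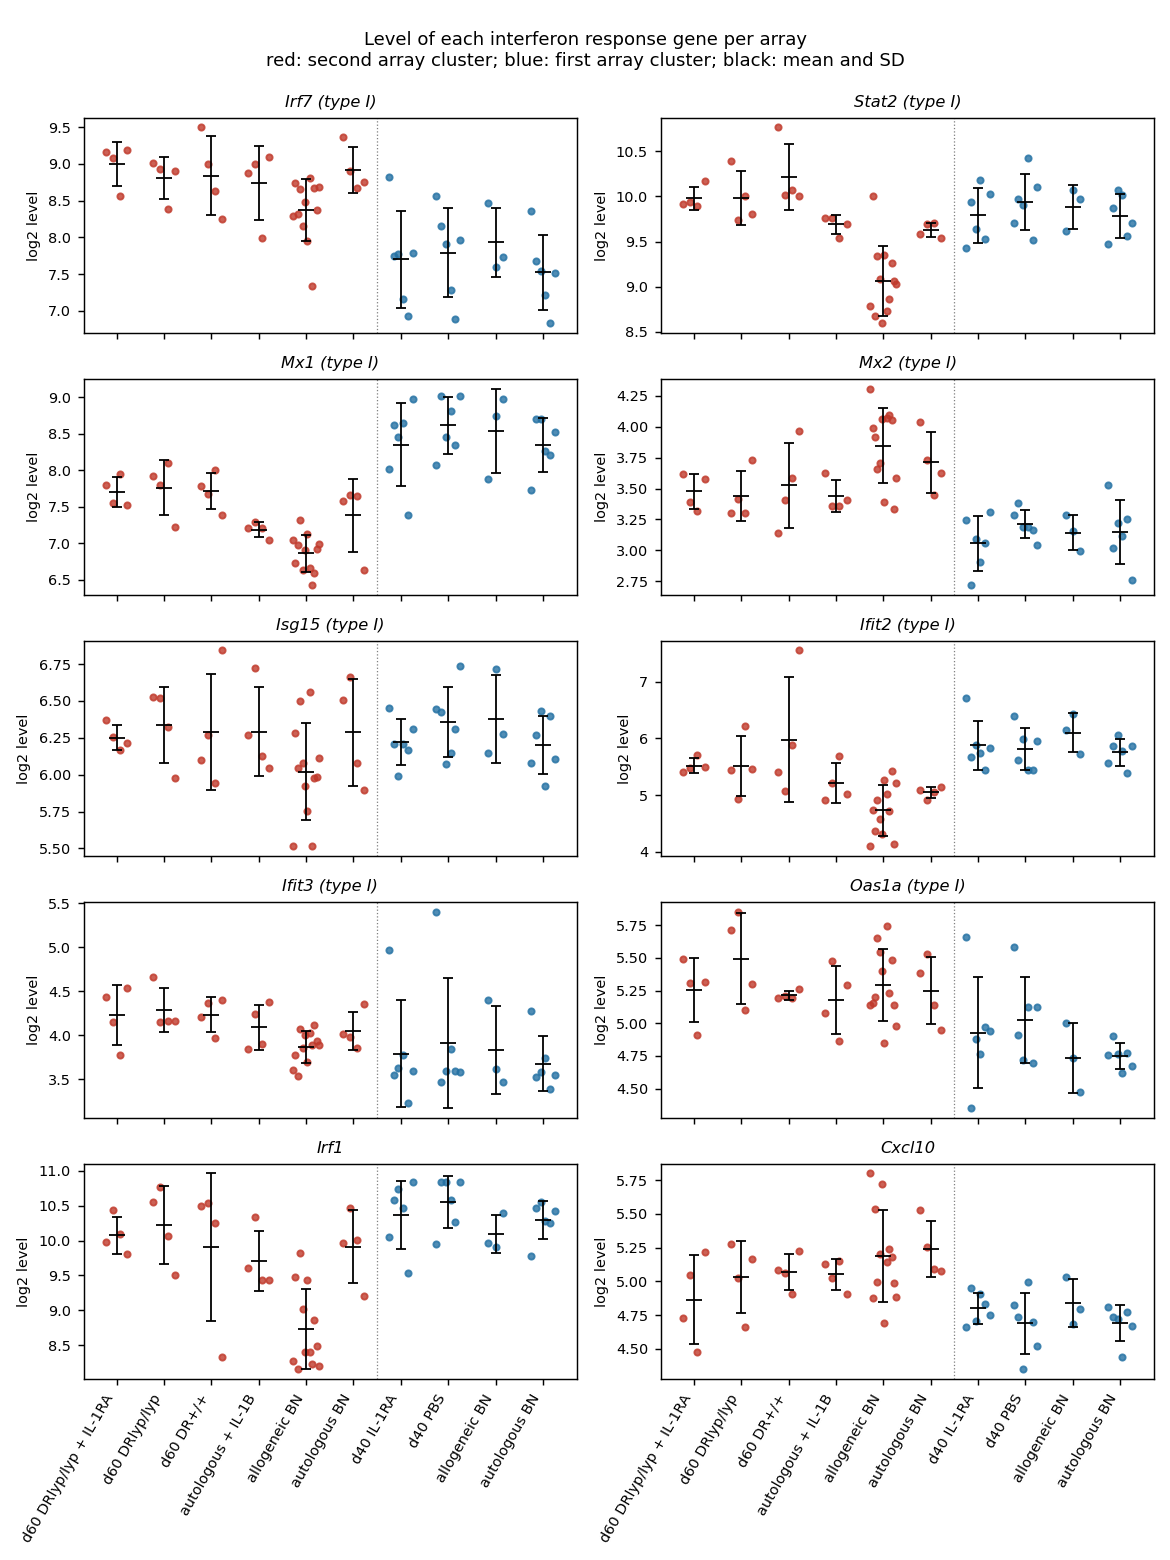
Log2 level of each member on each array (points), with the mean and SD of each group (black), for the second array cluster (red, left of the dotted line) and the first (blue, right of it). The 12 allogeneic arrays of the second cluster are the lowest group mean for Stat2, Mx1, Ifit2, Irf1, Irf7, Isg15 and Ifit3. The d60 DR+/+ array at 7.55 for Ifit2 and 8.33 for Irf1 stands apart from its group.

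Stat2 encodes a signalling subunit of the type I interferon response. In the second cluster it was at 9.92, 9.94, 9.89 and 10.17 with DRlyp/lyp serum plus IL-1RA. It was at 10.39, 9.74, 10.00 and 9.80 with DRlyp/lyp serum and at 10.76, 10.02, 10.07 and 10.00 with DR+/+ serum. These 12 values lay above all those with added IL-1B (9.76, 9.76, 9.54 and 9.70) and autologous serum (9.58, 9.69, 9.70 and 9.54), except that the lowest DRlyp/lyp array was within the IL-1B range. The 12 allogeneic arrays ran lower, with a lowest value of 8.59, a median of 9.05 and a highest value of 10.00. In the first cluster the 4 group means lay close together, at 9.79 ± 0.30 with day 40 IL-1RA serum and 9.94 ± 0.31 with day 40 PBS serum (SD, n = 6 each), and at 9.88 ± 0.24 with allogeneic (n = 3) and 9.79 ± 0.24 with autologous serum (n = 6).

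Stat2 was 0.92 higher with DRlyp/lyp serum than with allogeneic serum (SE 0.18, limma adjusted p = 0.0013), and 1.15 higher with DR+/+ serum (SE 0.18, limma adjusted p = 2.59e-05). Its other probe set gave 0.76 (adjusted p = 0.0075) and 0.61 (adjusted p = 0.020). Both comparisons use the same allogeneic arrays. Of all 31042 probe sets, 21.5% were called between DRlyp/lyp and allogeneic serum (12.1% higher and 9.38% lower), and 25.5% between DR+/+ and allogeneic serum (13.3% higher and 12.2% lower), so single calls here are read against a wide shift of the transcriptome.

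Mx1 encodes an interferon-induced GTPase that blocks virus replication. Its values in the second cluster were 7.79, 7.55, 7.95 and 7.52 with DRlyp/lyp serum plus IL-1RA. With DRlyp/lyp serum they were 7.92, 7.80, 8.10 and 7.22, and with DR+/+ serum 7.78, 7.68, 8.00 and 7.39. The 12 allogeneic values ran from 6.43 to 7.31 with a median of 6.91, below every DR+/+ value and below 3 of the 4 DRlyp/lyp values. Mx1 was 0.90 higher with DRlyp/lyp than with allogeneic serum (SE 0.21, limma adjusted p = 0.0040), and 0.86 higher with DR+/+ serum (SE 0.21, limma adjusted p = 0.0037). With added IL-1B it was at 7.21, 7.29, 7.21 and 7.04, against 7.58, 7.66, 7.65 and 6.64 with autologous serum alone. That difference was -0.20 and was not called.

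Ifit2 encodes a protein that binds viral RNA and restrains its translation. It was at 5.45, 4.93, 6.21 and 5.47 with DRlyp/lyp serum and at 5.41, 5.07, 5.89 and 7.55 with DR+/+ serum, against a lowest value of 4.09, a median of 4.73 and a highest value of 5.42 with allogeneic serum. The BB and allogeneic ranges overlapped. The difference was 0.79 with DRlyp/lyp serum (SE 0.25, limma adjusted p = 0.024) and 1.25 with DR+/+ serum (SE 0.25, limma adjusted p = 0.00070). The DR+/+ value depended on 1 array. Without replicate 4, at 7.55, Ifit2 was 0.73 higher (limma adjusted p = 0.016). The DRlyp/lyp call was lost without replicate 1 or replicate 3. The second Ifit2 probe set, near the bottom of the scale (group means 3.49 to 3.93), gave -0.16 and -0.23 and was not called.

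Mx2, a paralogue of Mx1 that lies beside it in the rat genome, was near the bottom of the scale, and its pair of probe sets disagreed. The main one was at 3.31, 3.41, 3.30 and 3.73 with DRlyp/lyp serum, against a lowest value of 3.34, a median of 3.95 and a highest value of 4.30 with allogeneic serum. It was called lower, by -0.41 (limma adjusted p = 0.025). The other was at 3.81, 3.82, 3.46 and 3.71 with DRlyp/lyp serum, above all 12 allogeneic values (2.98 to 3.33), and was called higher, by 0.51 (limma adjusted p = 0.00059). No direction is given for Mx2. The call on the main probe set was lost without DRlyp/lyp replicate 1, 2 or 3.

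Irf7, the factor that amplifies type I interferon production, was at 9.16, 9.08, 8.56 and 9.19 with DRlyp/lyp serum plus IL-1RA. It averaged 8.81 ± 0.28 with DRlyp/lyp serum, 8.84 ± 0.53 with DR+/+ serum and 8.74 ± 0.50 with added IL-1B (SD, n = 4 each). It averaged 8.37 ± 0.42 with allogeneic serum (n = 12) and 8.92 ± 0.31 with autologous serum (n = 4). The 6 groups overlapped. Against allogeneic serum Irf7 differed by 0.43 with DRlyp/lyp serum and by 0.47 with DR+/+ serum, neither called (limma adjusted p = 0.23 and 0.18).

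Isg15, a ubiquitin-like protein that is conjugated to other proteins in the antiviral response, had group means of 6.02 to 6.34 in the second cluster, and of at most 6.38 in the first. Ifit3, which works in a complex with other IFIT proteins, had group means of 3.87 to 4.28 and 3.68 to 3.91. Oas1a, which makes the oligoadenylates that switch on RNase L, had group means of 5.18 to 5.49 and 4.74 to 5.03. None of the 3 was called in any of the 12 comparisons fitted to the group means over all arrays. Oas1a came out highest with DRlyp/lyp serum, at 5.72, 5.85, 5.10 and 5.30, against 5.19, 5.21, 5.20 and 5.26 with DR+/+ serum, a difference of 0.28 that was not called (limma adjusted p = 0.94).

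Irf1 is a transcription factor induced by interferon-gamma, type I interferon and NF-kappaB. Of the 10 members it had the largest difference between DRlyp/lyp and allogeneic serum, while Ifit2 had the largest with DR+/+ serum. With DRlyp/lyp serum it was at 10.55, 10.76, 10.07 and 9.51, and with DRlyp/lyp serum plus IL-1RA at 9.98, 10.44, 10.09 and 9.80. DR+/+ serum gave 10.49, 10.54, 10.25 and 8.33. With allogeneic serum the lowest value was 8.16, the median 8.45 and the highest 9.82. In each day 60 BB group, with or without IL-1RA, 3 of the 4 arrays lay above every allogeneic array. Irf1 was 1.49 higher with DRlyp/lyp serum (SE 0.29, limma adjusted p = 0.0014) and 1.17 higher with DR+/+ serum (SE 0.29, limma adjusted p = 0.0040). Without DR+/+ replicate 4 the DR+/+ difference was 1.70.

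Cxcl10 is the chemokine that draws CXCR3-bearing T cells and is a common marker of interferon-gamma. Its group means lay between 4.86 and 5.24 in the second cluster and between 4.69 and 4.84 in the first. With DRlyp/lyp serum it was at 5.28, 5.02, 4.66 and 5.16 and with DR+/+ serum at 5.08, 5.06, 4.91 and 5.23, against 4.69 to 5.80 with allogeneic serum (median 5.16). The BB values lay inside the allogeneic range apart from the lowest DRlyp/lyp array. Neither difference was called (-0.16 and -0.12, limma adjusted p = 0.42 and 0.53). Both Irf1 and Cxcl10 carry NF-kappaB-type letters in the sequences above. Whether NF-kappaB acted on either gene was not tested.

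The order of the group means in the second cluster differed between the members. Stat2 and Ifit2 were highest with DR+/+ serum, and Mx1 and Irf1 with DRlyp/lyp serum. All 4 were lowest with allogeneic serum, as were Irf7, Isg15 and Ifit3. DRlyp/lyp and DR+/+ serum did not differ for any member past the threshold. Differences ran from -0.46 (Ifit2) to 0.32 (Irf1), 0 of the 10 members were called by limma, 0 had an unadjusted p under 0.05, and 0% of all probe sets were called.

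**Figure D2:**
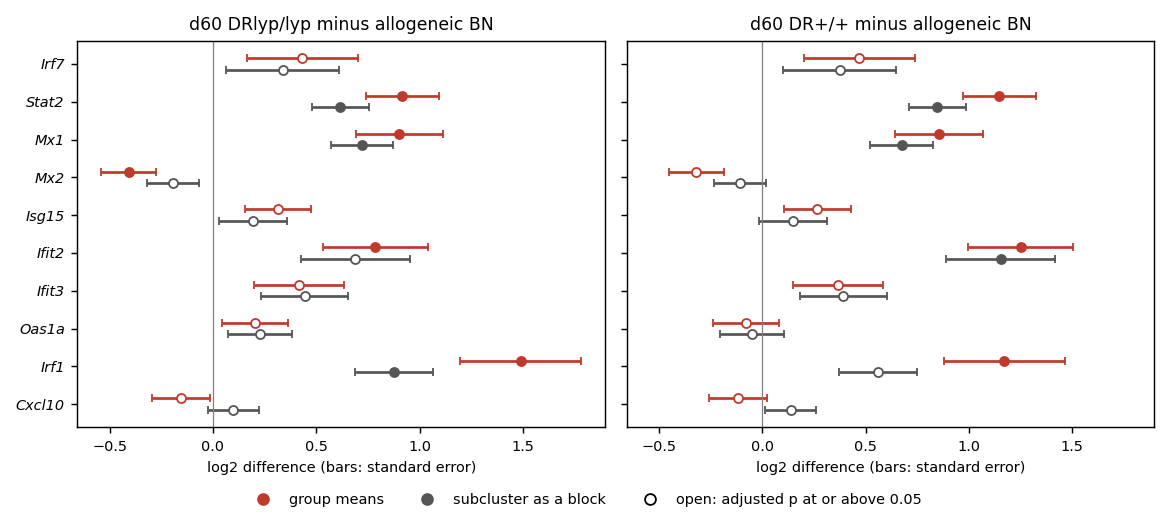
Log2 difference of day 60 DRlyp/lyp serum (left) and DR+/+ serum (right) from allogeneic BN serum in the second array cluster, with standard errors, from the group means (red) and with the array subcluster as a block (grey). Filled points have an adjusted p under 0.05. Stat2 and Mx1 are filled in all 4 sets of values, and the Irf1 differences are smaller with the block.

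Irf1 and Mx1 also tracked the array subclusters. In each of the 5 second-cluster groups of 4 arrays, the array in subcluster E was the lowest of its group for Irf1 and for Mx1. The 5 allogeneic arrays of subcluster F were the lowest for Stat2, at 8.59 to 8.87, and had Irf1 at 8.16 to 8.41, whereas the allogeneic arrays of subcluster C had Irf1 at 9.47 and 9.82. The day 60 comparisons with allogeneic serum were therefore repeated inside subclusters C, D and E, each of which holds all 6 groups.

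Subcluster C held 2 arrays of each BB serum and 2 allogeneic arrays, D held 1 and 1, and E held 1 and 4. Inside the subclusters the direction held for Stat2, Mx1 and Ifit2 in both BB sera. It also held for Ifit3, not called from the group means, by 0.21 to 0.48 with DRlyp/lyp and 0.26 to 0.45 with DR+/+ serum. Irf7 and Oas1a were higher in all 3 with DRlyp/lyp serum only, and Cxcl10 with DR+/+ serum only. Stat2 was higher with DRlyp/lyp than with allogeneic serum by 0.39, 0.65 and 0.69 in subclusters C, D and E, and with DR+/+ serum by 0.72, 0.72 and 0.90. Mx1 was higher by 0.84, 0.98 and 0.44 with DRlyp/lyp serum, and by 0.71, 0.87 and 0.61 with DR+/+ serum. Ifit2 was higher by 0.37, 0.95 and 0.63 with DRlyp/lyp serum, and by 0.41, 0.63 and 2.72 with DR+/+ serum. Irf1 was higher by 1.01, 0.63 and 0.87 with DRlyp/lyp serum. With DR+/+ serum it was higher by 0.87 and 0.81 in subclusters C and D and lower, by -0.32, in subcluster E, where DR+/+ replicate 4 stood.

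With the subcluster as a block, 4.07% of all probe sets were called between DRlyp/lyp and allogeneic serum, and 3 of the 10 members were among them, all higher. These were Irf1 by 0.88 (limma adjusted p = 0.0067), Mx1 by 0.72 (limma adjusted p = 0.0056) and Stat2 by 0.62 (limma adjusted p = 0.0079). Ifit2 (0.69, limma adjusted p = 0.12) and the main Mx2 probe set (-0.19, limma adjusted p = 0.40) were no longer called. Between DR+/+ and allogeneic serum 8.3% of probe sets were called with the block, and again 3 members, Stat2 by 0.85 (limma adjusted p = 8.8e-05), Mx1 by 0.67 (limma adjusted p = 0.0031) and Ifit2 by 1.15 (limma adjusted p = 0.0037). Irf1 was not (0.56, limma adjusted p = 0.056). The second Stat2 probe set was no longer called in either comparison (0.41 and 0.27).

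When the 5 arrays of subcluster F were left out, no member was called between DRlyp/lyp and allogeneic serum and 0.493% of probe sets were. Irf1 was then 1.18 higher (limma adjusted p = 0.055), Mx1 0.86 (limma adjusted p = 0.063) and Stat2 0.68 (limma adjusted p = 0.054). Between DR+/+ and allogeneic serum 3.81% of probe sets and 3 members, Stat2 (0.91), Mx1 (0.81) and Ifit2 (1.08), were called without subcluster F.

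**Figure D3:**
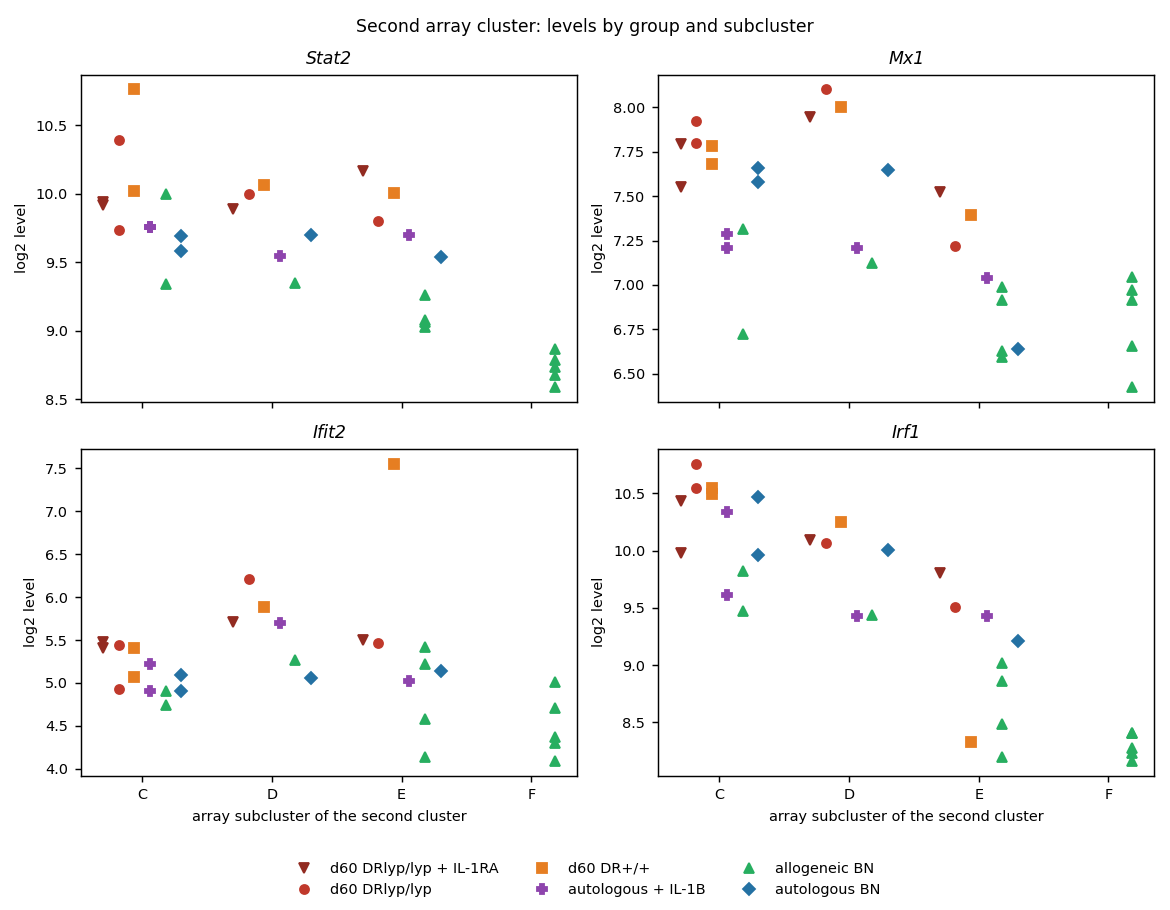
Log2 levels of Stat2, Mx1, Ifit2 and Irf1 on each array of the second cluster, by array subcluster (x axis) and serum group (symbol). In subclusters C, D and E the mean level of Stat2 and Mx1 is higher with both BB sera than with allogeneic serum, and the 5 arrays of subcluster F are all allogeneic.

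Some markers of monocytes, a minority of those listed, moved with the same contrast. Of 8 monocyte markers, 3 were called higher with DRlyp/lyp than with allogeneic serum, where 2783 of all 14217 genes were called higher and 1085 lower. With DR+/+ serum 3 of the 8 were called higher, where 2586 of all genes were called higher and 1598 lower. Among them was Cd14, a lipopolysaccharide coreceptor (1.97 and 1.93). With the subcluster as a block 1 and 2 of the 8 monocyte markers were called higher, where 734 and 1124 of all 14217 genes were. With that block 0 and 5 of the 7 platelet markers were called lower, where 82 and 319 of all genes were. The summed level of the 8 markers, on the log2 scale, ran from 12.55 to 12.87 with DRlyp/lyp serum and from 12.71 to 13.03 with DR+/+ serum, against 10.55 to 12.77 with allogeneic serum. Of 7 platelet markers, 1 was called lower with DRlyp/lyp serum and 3 with DR+/+ serum. The ranges of their summed level with both BB sera lay inside the allogeneic range. It ran from 14.01 to 14.40 with DRlyp/lyp serum and from 13.91 to 14.44 with DR+/+ serum, against 12.93 to 14.74 with allogeneic serum. Of 4 measured markers of plasmacytoid dendritic cells, the main producers of type I interferon in blood, none was called between DRlyp/lyp and allogeneic serum, while Tcf4 was called higher (0.77) and Cd4, which T cells also carry, lower (-0.36) with DR+/+ serum. RNA integrity was gauged by how far the 3′ probe set for actin exceeds the 5′ one on the log2 scale. This gap averaged 2.32 ± 0.15 with DRlyp/lyp serum and 2.23 ± 0.75 with DR+/+ serum (SD, n = 4 each), against 2.78 ± 0.39 with allogeneic serum (n = 12). It was 1.13 on DR+/+ replicate 4. Whether these cell types or RNA integrity contributed to the levels of the members was not tested.

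The wider interferon lists gave the setting. Of 35 measured type I interferon-induced genes other than the members, 9 were called higher and 0 lower with DRlyp/lyp than with allogeneic serum, with a median difference of 0.30, while over all 14217 genes 2783 were called higher and 1085 lower, with a median of 0.05. The largest were Ly6e (1.30), Parp9 (0.93) and Eif2ak2 (0.90), the last of which encodes the RNA-sensing kinase PKR. With DR+/+ serum 11 of the 35 were called higher and 2 lower, with a median of 0.19, while over all 14217 genes 2586 were called higher and 1598 lower, with a median of 0.03. The largest were Ly6e (1.39), Eif2ak2 (0.92) and Sp110 (0.81). With the subcluster as a block these counts were 5 higher and 0 lower with DRlyp/lyp serum, and 5 higher and 1 lower with DR+/+ serum, against 734 and 1124 of all 14217 genes called higher.

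Against the same counts over all genes, 6 of 16 measured interferon ligands, receptors and signalling genes were called higher with DRlyp/lyp serum, with a median of 0.48, among them the kinases Tyk2 (0.84) and Jak2 (0.84) and the repressor Irf2 (0.75). With DR+/+ serum 5 of the 16 were called higher, with a median of 0.34, led by Irf2 (1.61), Tyk2 (0.98) and the receptor chain Ifnar2 (0.90). The 1 called lower was the type I interferon gene Ifnb1 (-0.32), a dim probe set with a mean level of 4.19. With the block the counts called higher were 0 and 3 of 16, where 734 and 1124 of all 14217 genes were called higher.

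Against autologous serum the day 60 sera gave smaller differences. With DRlyp/lyp serum Stat2 differed by 0.35, Mx1 by 0.38, Ifit2 by 0.47 and Irf1 by 0.31. None of the 10 members was called by limma, none had an unadjusted p under 0.05, and 0.0354% of probe sets were called (0.0322% higher and 0.00322% lower). With the subcluster as a block 0 members and 0.0419% of probe sets were called (0.00644% lower). With DR+/+ serum Ifit2 differed by 0.93 and Stat2 by 0.58 (limma adjusted p = 0.11 and 0.16). Both had an unadjusted p under 0.05, and 0 of 10 members and 1.35% of probe sets were called. With the subcluster as a block 8.7% of probe sets (5.64% higher) and these same 2 genes, Ifit2 (limma adjusted p = 0.035) and Stat2 (limma adjusted p = 0.011), were called higher with DR+/+ serum. Without replicate 4, and without the block, the Ifit2 difference was 0.41 (limma adjusted p = 0.39). Of the 35 other type I genes, Znfx1 was called higher (0.92) and Dhx58, an RNA sensor of the RIG-I family, lower (-0.56) with DR+/+ serum.

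Allogeneic against autologous BN serum is the control contrast of one rat's serum on another's cells. In the second cluster Irf1 differed by -1.18 (SE 0.29, limma adjusted p = 0.088), Stat2 by -0.56, Irf7 by -0.55 and Mx1 by -0.52. None of the 10 was called, although these 4 had an unadjusted p under 0.05, and 0.00966% of probe sets were called. With the subcluster as a block the Irf1 difference was -0.56 (limma adjusted p = 0.32). In the first cluster, with 3 allogeneic arrays, Irf1 differed by -0.20, Stat2 by 0.10, Irf7 by 0.41 and Mx1 by 0.18. In that cluster none was called, 0 had an unadjusted p under 0.05, and 1.07% of probe sets were called. The first-cluster difference minus the second-cluster difference was 0.98 for Irf1 and 0.96 for Irf7 (limma adjusted p = 0.37 and 0.34). None of the 10 members was called for this difference, and 0.696% of probe sets were (0.0838% higher), so a difference between the clusters was not shown.

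Neither manipulation of IL-1 in the culture moved a member past the threshold. With IL-1B added to autologous serum the 10 differences ran from -0.27 (Mx2) to 0.16 (Ifit2), including -0.21 for Irf1 (9.61, 10.34, 9.43 and 9.43, against 9.96, 10.47, 10.01 and 9.21 with autologous serum). With IL-1RA added to DRlyp/lyp serum they ran from -0.24 (Oas1a) to 0.19 (Irf7), with -0.14 for Irf1. In both comparisons 0 of the 10 were called by limma, 0 had an unadjusted p under 0.05, and 0% of all probe sets were called. The standard error for Irf1 was 0.36 in each.

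**Figure D4:**
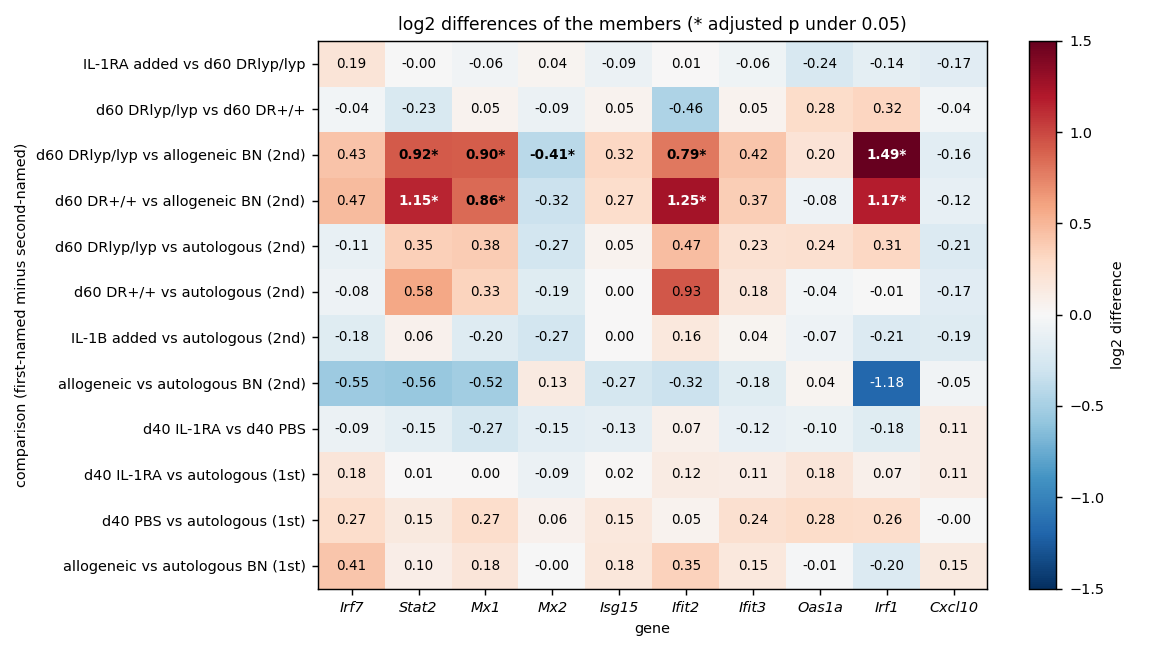
Log2 differences of the 10 members (columns) in the 12 comparisons (rows), each the first-named group minus the second, within the first (1st) or second (2nd) array cluster. Asterisks mark an adjusted p under 0.05, and all 9 stand in the rows of day 60 serum against allogeneic serum.

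The day 40 sera were compared in the first cluster. With serum of IL-1RA-treated rats the members differed from those with serum of PBS-treated rats by -0.27 (Mx1) to 0.11 (Cxcl10). The numbers 1 to 6 paired the arrays of this comparison, and 0 of the 10 members were called by limma with or without the pairing. Of all probe sets 0.00322% were called, and 0 members had an unadjusted p under 0.05. With PBS serum 9 of the 10 members had a positive difference from autologous serum, from 0.05 (Ifit2) to 0.28 (Oas1a), and Cxcl10 differed by less than 0.01. With IL-1RA serum 9 of the 10 were positive as well, and the differences from autologous serum ran from -0.09 to 0.18. In both, 0 members were called, 0 had an unadjusted p under 0.05, and 0% of probe sets were called.

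Within the first cluster several members followed the replicate number across the sera. Irf7 was highest on replicate 1 and lowest on replicate 5 in all 3 groups of 6. On replicate 1 it was at 8.82 with IL-1RA serum, 8.56 with PBS serum and 8.36 with autologous serum. On replicate 5 it was at 6.93, 6.89 and 6.83 in the same order. Ifit3 was highest on replicate 1 in all 3 groups, at 4.97 with IL-1RA serum, 5.40 with PBS serum and 4.28 with autologous serum, while its other 15 values in these groups lay between 3.23 and 3.85. Allogeneic replicate 1, also in subcluster A, was the highest allogeneic array of the first cluster for Irf7 (8.47) and Ifit3 (4.40).

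Oas1a was at 5.66 on replicate 1 with IL-1RA serum and 5.59 with PBS serum, above all other first-cluster arrays, but at 4.76 with autologous serum. Ifit2 was at 6.71 on replicate 1 with IL-1RA serum, 6.40 with PBS serum and 5.57 with autologous serum, and allogeneic replicate 2 (6.42) lay between the first 2 of these values. Irf1 and Mx1 went the other way on replicate 1 only. On replicate 1 Irf1 was at 10.05 with IL-1RA serum, 9.95 with PBS serum and 9.78 with autologous serum, and its mean over these 3 arrays was the lowest of the 6 numbers, at 9.93. Mx1 likewise had its lowest mean on replicate 1, at 7.94. Their next lowest means were on replicate 5, where Irf7 was lowest, at 10.02 for Irf1 and 7.98 for Mx1. Replicates 1 and 5 of these groups stood in subcluster A.

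**Figure D5:**
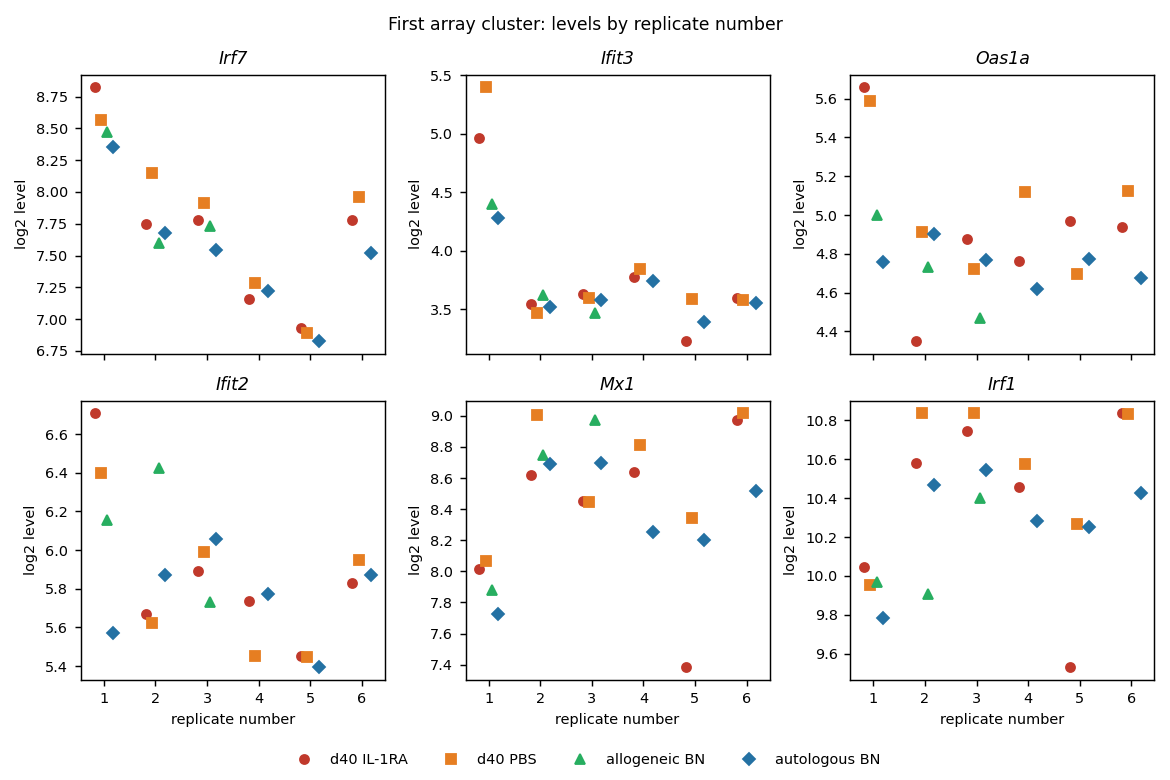
Log2 levels in the first array cluster by replicate number (x axis) and serum group (symbol) for 6 members. Replicate 1 is highest for Irf7 and Ifit3 in all 3 groups of 6, and replicate 5 is lowest for Irf7.

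The clusters themselves differed in the same serum. With autologous serum Irf7 averaged 7.52 ± 0.51 in the first cluster (SD, n = 6) and 8.92 ± 0.31 in the second (n = 4), a difference of -1.39 with ranges that did not overlap. Oas1a (-0.50) and Cxcl10 (-0.55) were also lower in the first cluster without overlap. Mx1 (0.97) and Ifit2 (0.71) were higher in the first cluster without overlap, and Irf1 (0.38), Stat2 (0.16), Isg15 (-0.08), Ifit3 (-0.37) and Mx2 (-0.56) overlapped. The second Stat2 probe set was lower in the first cluster without overlap (-0.81), so the Stat2 pair disagreed here. These are descriptions of arrays that the labels call alike, and no test was made. The clusters were formed from the whole profiles of these same arrays. The share of all probe sets without overlap is not given, so the lack of overlap is not read as a result about the members.

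After the group means were taken out, the members did not vary as 1 unit over the 53 arrays. Oas1a and Ifit3 (Pearson r = 0.62), Irf7 and Ifit3 (r = 0.59) and Oas1a and Irf7 (r = 0.52) went together. So did Oas1a and Isg15 (r = 0.49). Irf7, Ifit3 and Oas1a carry the ISRE-type letters printed above, and no promoter was on hand for Isg15. Cxcl10 carries them too, with r = 0.23 to Oas1a, r = 0.11 to Ifit3 and r = 0.05 to Irf7. Whether the ISRE bears on these correlations was not tested. Irf1 went with Mx1 (r = 0.58) and Stat2 (r = 0.55). Ifit3 and Mx1, both antiviral genes, had r = -0.43. Correlation with the mean of the other type I members ran from -0.13 (Mx1) to 0.53 (Oas1a), and was 0.15 for Irf1 and -0.03 for Cxcl10. The arrays share subclusters, which enter all these values.

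The named genes outside the members most like the mean of the 8 type I members over the same 53 arrays were Praf2 (r = 0.76), the chemokine gene Ccl6 (r = 0.76), the respiratory chain subunit Ndufa12 (r = 0.74), the annexin Anxa2 (r = 0.73) and Sqor (r = 0.73). Most like Irf1 were Acap1 (r = 0.94), Izumo4 (r = 0.91), the stress response factor Atf4 (r = 0.91), Maf1 (r = 0.91) and Fbxw5 (r = 0.91). Most like Cxcl10 were Amotl1 (r = 0.72), Eva1c (r = 0.68), Ucn2 (r = 0.67), Prr27 (r = 0.67) and Shbg (r = 0.66). None of these genes is on the interferon lists used here.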

How the data were processed

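The 53 arrays are 1-colour Affymetrix expression arrays. The log2 values were made by the authors before deposit: RMA, a method that subtracts background, equalises array distributions and combines probes, and Partek 6.2 are named in the submitters' processing notes, with no order of steps. Differences of dim probe sets are compressed by RMA. Array medians ran from 5.29 to 5.63 on the log2 scale, and no sequencing depth applies. Precision is limited by how many arrays a group has.

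Of 31099 probe sets, 57 controls were left out and 31042 tested. A symbol from the platform annotation was used where a probe set had 1 (20826), and not where it had several (436) or none (9780). Arrays were clustered by Ward's method into 2 clusters and 6 subclusters. The main model, in limma 3.58.1 (R 4.3.3), had 10 group-by-cluster means, with moderated variances that follow mean expression and Benjamini-Hochberg adjustment over all 31042 probe sets. It was tested on simulated data that lacked array clusters and shared deviations between arrays, so that test does not cover these features of the real arrays. Gene lists and likeness use 1 probe set per gene, the one with the highest mean. Likeness is Pearson's r of residuals from the 10 means over 53 arrays.

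The members and lists were chosen with earlier results of these data known. The members were always named, with up to 3 called genes of each interferon list reported per comparison by size of the difference, and the 5 genes most alike. Ifnb1 was named besides, outside this rule. The subcluster block, alone or with actin, and leaving out the subcluster of allogeneic arrays alone were chosen after seeing the data. The other alternatives were pooling the clusters, cluster as a block, array weights, no variance trend, actin as a covariate, renormalisation, centring, a filter on dim probe sets, fits of only the arrays compared, a stricter threshold, the replicate number as a block and leaving out each array.

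Equal numbers were taken as pairs where every pair's deviations correlated above 0.1. This held for DRlyp/lyp against DR+/+ (lowest r = 0.175), day 40 IL-1RA against PBS (0.401) and day 40 IL-1RA against autologous serum (0.129), and not for the other 4 comparisons that share numbers. The result of 1 interferon gene list is not reported here.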

Additional observations from a re-analysis of the deposited data

Results flagged for a closer look

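Of the 80 sets of values (a member in a group of 4 or 6 arrays) examined, 7 had an array far from the rest by Dixon's criterion, in 5 members, and chance flags about 1 in 20 groups. With day 40 IL-1RA serum, replicate 1 stood apart for Ifit3 (4.97, the nearest other array at 3.78) and for Ifit2 (6.71, the nearest at 5.89). With day 40 PBS serum, replicate 1 stood apart for Ifit3 (5.40, the nearest at 3.85). With day 60 DRlyp/lyp serum, replicate 1 stood apart for Ifit3 (4.66, the nearest at 4.16). With day 60 DR+/+ serum, replicate 1 was high for Stat2 (10.76, the nearest at 10.07) and replicate 4 was low for Irf1 (8.33, the nearest at 10.25). With autologous serum in the second cluster, replicate 10 was low for Mx1 (6.64, the nearest at 7.58).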

How the results depend on the processing

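The counts are of members called among 10 by limma. The number of all probe sets called also moved between settings. A changed count is therefore not read as a result about the members. With day 60 DRlyp/lyp against allogeneic serum, 5 were called, beside 21.5% of all 31042 probe sets. That share was 4.07% with the subcluster block and 0.493% without the subcluster of allogeneic arrays alone. The count was 2 with the 8 groups pooled over both clusters, 3 among the 5 members above the median level, 3 at an adjusted p under 0.01, 3 with the subcluster block with or without actin, and 0 without the subcluster of allogeneic arrays alone. It was 6 with array weights, 4 after a second quantile normalisation, and 5 with the cluster as a block, no trend, actin, centring or only the arrays compared. It ran from 3 to 5 when each array was left out, where 1530 to 9184 of all probe sets were called. It was 3 without DRlyp/lyp replicate 1 (1530 probe sets called) or 3 (2244 called). Irf1, Stat2 and Mx1 were called in 16 of 16 such fits. With DR+/+ against allogeneic serum, 4 were called, beside 25.5% of all probe sets. The count was 1 with the groups pooled, and 3 with the subcluster block (8.3% of probe sets) or above the median level. It was also 3 without the subcluster of allogeneic arrays alone (3.81% of probe sets). It was 5 with actin or only the arrays compared, 6 with array weights and 4 under the other settings. Leaving out each array gave 4 to 5, with 3726 to 10532 probe sets called. With DR+/+ against autologous serum, 0 were called, beside 1.35% of all probe sets. The count was 2 with the cluster as a block and 1 with array weights. It was 2 with the subcluster block (8.7% of probe sets) and 1 with that block and actin. Leaving out each array gave 0 to 1, with 43 to 1118 probe sets called. It was 1 without DR+/+ replicate 2 (594 probe sets called). With allogeneic against autologous serum, 0 were called in each cluster, beside 1.07% of all probe sets in the first and 0.00966% in the second. The fit that pools the clusters called 4. There the first-cluster differences turned sign for Mx2 (0.33), Mx1 (-0.77) and Stat2 (-0.49), and that fit gives both clusters 1 value by construction. In the second cluster the count ran from 0 to 2 leaving out each array, with 0 to 780 probe sets called. It was 2 without allogeneic replicate 5 (131 probe sets called). It was 1 without allogeneic replicate 7 (365 called) or 10 (279 called) or autologous replicate 10 (780 called). The other causes were not tested. With the replicate number as a block, 0 members were called in each of the 7 comparisons that share numbers, as without it. Dim probe sets (Mx2, Ifit3) limit what can be seen.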
